A study of Mus musculus with 2 samples.

Results

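Map2, Map1b, Tubb3, Tubb2a, Tubb2b, Stmn2, Nefl, Nefm, Nefh and Gap43 are 10 genes that build the cytoskeleton of neurons or act in the growth of their processes, and their chromatin was described here in mouse hippocampus. The rule that lists them names the genes and uses no measured value, though the list was drawn up with earlier results of these data known, and they are 10 of the 21938 protein-coding genes of the annotation (GENCODE M21, mouse build mm10). DNase-seq, which cuts nuclear DNA with the enzyme DNase I and counts the cuts along the genome, was run on 2 libraries of 1 group. Both came from female mice of 25 days, first-generation hybrids of the strains C57BL/6J and CAST/EiJ sold as B6CASTF1/J, and the tissue label was "layer of hippocampus", with the layer unnamed. No treatment, mutant or control group was part of the design, so all values below describe 1 kind of tissue. The libraries carried the numbers of biological replicates 1 and 2 but the same donor entry, and whether they came from different animals is not stated, so part of the difference between the libraries may be technical.

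Microtubules are hollow polymers of alpha and beta tubulin that run along axons and dendrites. Microtubule-associated proteins bind and stabilise them, stathmins bind free tubulin and favour disassembly, and the neurofilament subunits form the intermediate filaments that set the calibre of axons. DNase I cuts where nucleosomes are displaced, so a promoter in use usually shows as a peak of cuts, and a stretch inside a peak that is cut less than its flanks, called a footprint, marks bases that may be covered by a protein. A peak shows accessibility and not transcription.

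A promoter was called open where a peak of the strict list of each library lay within 500 bp of any annotated transcript start. Every peak of that list held a base with a false discovery rate (FDR) of the cut rate of 0.001 or less. In tissue, a lower signal cannot be assigned to fewer cells with an open site or to weaker opening in each cell. The strict lists held 61466 peaks in replicate 1 and 50379 in replicate 2, and the deposited peak signal was higher in replicate 1 in 96.5% of the 37119 regions where both libraries had a peak, by a median ratio of 2.28. Signals were therefore read within a library and by rank. Of markers chosen to check the tissue, promoters were open for 4 of 4 general neuronal genes, the hippocampal excitatory neuron genes Neurod6, Zbtb20 and Emx1 but not Prox1 and Slc17a7, 0 of 3 interneuron genes, 1 of 4 astrocyte genes (Gfap), 0 of 4 oligodendrocyte genes, 0 of 3 microglia genes, 0 of 3 vessel genes and 0 of 5 genes foreign to brain. Of all protein-coding genes 54.2% were open. The 4 general neuronal genes had a median signal of 2.77 in replicate 1 and 1.49 in replicate 2, and Gfap had 6.85 in replicate 1 and 1.58 in replicate 2. Gfap was not open where only starts of the basic transcript set of the annotation were used. In the longer lists of weaker peaks, Prox1, Slc17a7, 3 of the 4 astrocyte genes, 1 of the 4 oligodendrocyte genes (Mbp) and 1 of the 3 microglia genes (Csf1r) had peaks of both libraries, and the interneuron, vessel and foreign genes had none.

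Sequences at the genes show which bases carried the footprints. The 4 promoters below are those of the 10 genes that the RefSeq promoter table (GRCm38.p6, the same build as mm10) held, each from 250 bases before to 50 after the RefSeq start, 5′ to 3′ on the strand of the gene. Capitals mark bases inside footprints that overlapped between both libraries. The sequence is that of the C57BL/6J reference, so bases that differ on the CAST/EiJ chromosome are not shown.
Map2, chr1:66175079-66175378, plus strand: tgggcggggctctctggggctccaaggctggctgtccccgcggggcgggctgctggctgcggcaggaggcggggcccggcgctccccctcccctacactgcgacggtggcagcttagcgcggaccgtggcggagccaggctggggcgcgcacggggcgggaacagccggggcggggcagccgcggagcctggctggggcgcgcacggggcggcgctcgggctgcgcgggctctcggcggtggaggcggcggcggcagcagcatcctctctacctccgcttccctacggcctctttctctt
Map1b, chr13:99516553-99516852, minus strand: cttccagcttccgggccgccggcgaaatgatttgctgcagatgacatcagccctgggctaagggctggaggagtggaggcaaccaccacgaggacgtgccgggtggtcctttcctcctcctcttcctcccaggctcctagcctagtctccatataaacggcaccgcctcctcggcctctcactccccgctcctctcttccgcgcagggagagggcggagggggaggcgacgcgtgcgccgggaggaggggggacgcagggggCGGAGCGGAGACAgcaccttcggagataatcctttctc
Tubb3, chr8:123411303-123411602, plus strand: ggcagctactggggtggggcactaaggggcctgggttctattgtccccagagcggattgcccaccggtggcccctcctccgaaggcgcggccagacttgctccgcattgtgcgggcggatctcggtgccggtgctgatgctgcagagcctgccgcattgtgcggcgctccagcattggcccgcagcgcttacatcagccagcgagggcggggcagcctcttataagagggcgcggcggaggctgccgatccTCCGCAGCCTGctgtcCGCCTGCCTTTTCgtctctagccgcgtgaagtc
Tubb2a, chr13:34077959-34078258, minus strand: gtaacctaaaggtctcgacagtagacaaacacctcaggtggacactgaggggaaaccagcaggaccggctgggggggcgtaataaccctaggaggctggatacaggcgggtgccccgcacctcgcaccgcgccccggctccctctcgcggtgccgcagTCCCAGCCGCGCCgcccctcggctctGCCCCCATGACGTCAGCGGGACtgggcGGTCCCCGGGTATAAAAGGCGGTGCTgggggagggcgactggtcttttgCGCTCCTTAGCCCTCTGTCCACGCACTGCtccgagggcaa
The Tubb2a stretch held 4 shared footprints over 90 of its 300 bases, the Tubb3 stretch 2 over 24 bases, the Map1b stretch 1 over 13 bases and the Map2 stretch 0. The 4 stretches had a median of 25.5 CpGs and a median observed over expected CpG ratio of 0.754. Over 20150 RefSeq promoters of protein-coding genes, open or not, the medians were 14 CpGs and 0.588. The ratios of the 4 stood above 60.8% (Map1b) to 74.3% (Map2) of those promoters.

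Some short letters of known binding sites fell in the capitals. Positions are counted from the RefSeq start base as 0, and both strands were searched. In Tubb2a the cyclic AMP response element TGACGTCA lay at -59 to -52 with all 8 bases in a shared footprint, and 2.31% of the 20150 promoters held these letters. It contains both copies of the shorter site TGACG found there, which 24.2% of promoters held. The Tubb2a TATA box TATAAA at -29 to -24 also had all 6 bases in a shared footprint, and 12.1% of promoters held it. Map1b held TATAAA as well, at -99 to -94 and outside any shared footprint. The SP/KLF letters GGGCGG were in all 4 promoters, with 5 copies in Map2, and in 47.8% of all promoters. Tubb3 held the NFY letters CCAAT (on the minus strand, in 37.8% of promoters) and an EGR match to GCGTGGGCG with 1 mismatch (18.4%), which overlapped a GGGCGG copy. Map1b held an NRF1 match to GCGCATGCG with 1 mismatch (12.7%) and CAGATG (14.3%). A match to the CTCF core AGGGGGCGC with 1 mismatch was in Map2, Map1b and Tubb3, and in 19.97% of all promoters, and the Map1b match overlapped a GGGCGG copy. None of the 4 held AP1 letters TGANTCA (7.00% of promoters), CAGCTG (15.7%), the paired RFX letters GTTGCC and GGNAAC (8.74%) or the paired REST letters TTCAGCACC and GGACAGCGC (0.635%). The RFX letters were joined by any 2 bases with up to 2 mismatches, and the REST letters by any 2 bases with up to 4.

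All 10 genes were open in both libraries, where 54.2% of protein-coding genes were. All 10 were also open in the longer lists (a base at FDR 0.05 or less per peak), where 59.7% of genes were. Only 777 of 61466 strict peaks in replicate 1 and 1046 of 50379 in replicate 2 lacked a longer-list peak. The second count was therefore not independent of the first. Most of the 10 have few annotated starts: Tubb3, Tubb2a, Tubb2b, Nefl, Nefm, Nefh and Gap43 have 1 or 2, and of the 8890 protein-coding genes with 1 or 2 starts 28.2% were open. Map2 has 23 starts, Map1b 6 and Stmn2 4, and among genes with 10 or more starts 90.1% were open. At the outermost start alone, 9 of the 10 were open, without Gap43, against 48.8% of genes. Within 100 bp of the start of a protein-coding transcript, a distance chosen after the peaks had been seen, 8 of the 10 were open, without Nefh and Gap43, against 48.5% of genes.

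Most of these promoter peaks were of low to middling strength. The strongest promoter peak of the 10 genes had a median of 2.85 in replicate 1 and 1.30 in replicate 2, against medians over open protein-coding genes of 4.30 in replicate 1 and 1.80 in replicate 2. Below those medians lay 7 of the 10 genes in replicate 1 and 9 of the 10 in replicate 2. The value is the strongest over all starts of a gene, and the 10 genes had a median of 2 starts against 5 over open genes. Open genes with 1 or 2 starts had a median signal of 3.68 in replicate 1 and 1.58 in replicate 2. The signals of the genes ran from 1.27 (Nefh) to 6.07 (Tubb2a) in replicate 1 and from 0.555 (Nefh) to 2.35 (Tubb2a) in replicate 2, so the same genes stood at both ends in both libraries.

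**Figure D1:**
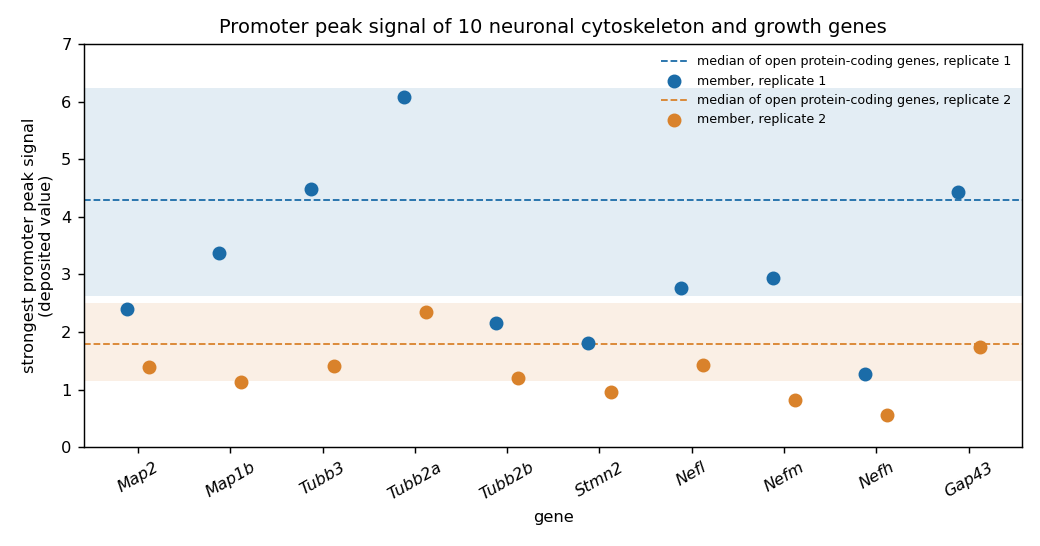
Strongest promoter peak signal (deposited value, vertical axis) of each gene in replicate 1 (blue) and replicate 2 (orange). Dashed lines are the medians and shaded bands the quartiles over open protein-coding genes in the same library (2.63 to 6.23 in replicate 1, 1.16 to 2.50 in replicate 2); Tubb2a is the highest of the 10 and Nefh the lowest in both libraries.

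Among the beta tubulins, Tubb2a (chr13:34074274-34078007, minus strand) had the strongest promoter peak of the 10 genes. The deposited signal of Tubb2a reached 6.07 in replicate 1 and 2.35 in replicate 2, above 76.1% of the genes with a promoter peak in replicate 1 and 70.5% in replicate 2. The peak lay over its only annotated start in both libraries, and the 4 shared footprints lay between bases -93 and 37 relative to that start. They are the 4 runs of capitals in its printed sequence.

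Tubb3 (chr8:123411424-123422015, plus strand) encodes class III beta tubulin, the isoform widely used to stain neurons. Its signal was 4.49 in replicate 1 and 1.41 in replicate 2. Of the genes with a promoter peak, it exceeded 57.4% in replicate 1 but only 35.2% in replicate 2. The peak covered both annotated starts, the lowest FDR lay between them, 101 bp into the gene in replicate 1 and 103 bp in replicate 2, and both shared footprints lay between bases -36 and -8 relative to the second start. An annotated readthrough transcript unit, Gm20388, spans the Tubb3 locus.

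Tubb2b (chr13:34126748-34130466, minus strand), the neighbouring copy of Tubb2a and a major beta tubulin of the developing brain, was weaker. It reached a signal of 2.16 in replicate 1 and 1.21 in replicate 2. This top peak was not the same one in both libraries: in replicate 1 it lay 454 bp inside the gene, where replicate 2 had a signal of 0.975, while the peak over the start had 1.81 in replicate 1 and 1.21 in replicate 2. At FDR 0.001 or less it had 532 bases in replicate 1 and 893 in replicate 2, the reverse of the usual order between the libraries. Stmn2 (416 in replicate 1 and 439 in replicate 2) and Gap43 (205 and 314) also had more in replicate 2. None of the 5 footprints of Tubb2b in replicate 1 overlapped one of the 5 in replicate 2.

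Copies of tubulin genes can share sequence reads. Of the stretches of 32 bases in each gene body, 30.8% in Tubb2a, 36.6% in Tubb2b and 14.6% in Tubb3 also occurred elsewhere in the genome, and 803 of them were common to Tubb2a and Tubb2b. In the promoter peaks of Tubb2a and Tubb2b this share was 0%. In those of Tubb3 it was 7.69% in replicate 1 and 19.7% in replicate 2, so part of the Tubb3 peak is less certain. The promoter peaks of the other 7 genes had 0%.

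Of the microtubule-associated proteins, Map2 (chr1:66175273-66442583, plus strand), a marker of dendrites, was open at 3 of its 10 groups of starts. The groups are starts no more than 500 bp apart, numbered from the 5′ end. Group 1, at the 5′ end, had a signal of 2.40 in replicate 1 and 1.28 in replicate 2. Group 3, 146.7 kb into the gene, had a similar signal, 2.35 in replicate 1 and 1.39 in replicate 2, and was the stronger of the pair in replicate 2. Group 6, at 211.7 kb, had 1.15 in replicate 1 and 0.923 in replicate 2. The other 7 groups had no strict peak in either library. The 4 shared footprints of Map2 lay at the internal groups 3 and 6, with 2 at each, all between base -38 and base 0 relative to the nearest start, and 0 at the 5′ start. The printed 5′ sequence therefore has no capitals.

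Map1b (chr13:99421446-99516540, minus strand) encodes a microtubule-associated protein of growing axons. Its outermost start had a signal of 3.37 in replicate 1 and 1.13 in replicate 2. That was higher than 41.7% of the genes with a promoter peak in replicate 1 and 24.4% in replicate 2. A second coding start, 68.9 kb into the gene, had a strict peak of signal 1.40 in replicate 1 only, and in replicate 2 a peak of 0.818 only in the longer list (FDR 0.05 or less). Map1b had 12 footprints in replicate 1 and 9 in replicate 2, of which 3 overlapped. A promoter of the noncoding gene Gm26559 lay in the same region.

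**Figure D2:**
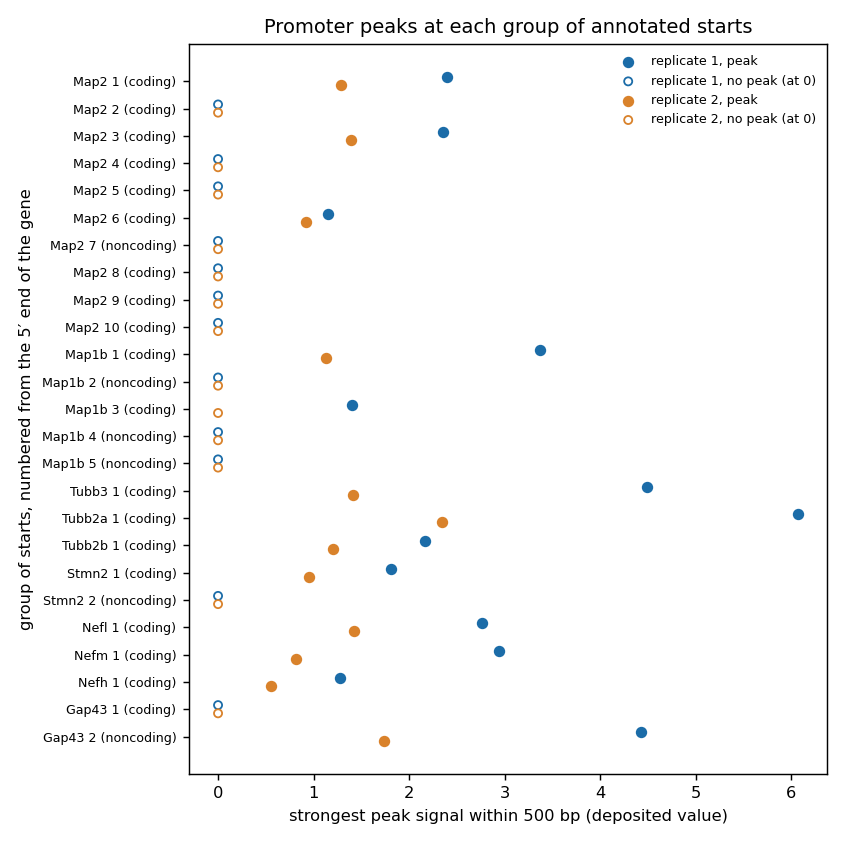
Strongest strict-list peak signal (deposited value, horizontal axis) within 500 bp of each group of annotated starts, numbered from the 5′ end of each gene, in replicate 1 (blue) and replicate 2 (orange). Open circles at 0 mark groups without a peak; 12 of the 25 groups had a peak in both libraries, and the 5′ group of Gap43 had none.

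Stmn2 (chr3:8509360-8561606, plus strand) encodes a stathmin of growing and regenerating axons, and its promoter was among the weakest. The signal was 1.81 in replicate 1 and 0.953 in replicate 2. It lay above 20.6% of the genes with a promoter peak in replicate 1 and 18.0% in replicate 2. The peak of replicate 2, 437 bp wide, reached further upstream than that of replicate 1, 220 bp wide. The start of its noncoding transcript at 8560266 had no peak in either library. It had 3 footprints in replicate 1 and 6 in replicate 2, of which 0 overlapped.

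The neurofilament genes Nefl, Nefm and Nefh encode the light, medium and heavy subunits, and their promoters differed in strength and in how well the libraries matched. Nefl (chr14:68083863-68089095, plus strand) had a signal of 2.76 in replicate 1 and 1.43 in replicate 2, from a peak over the start that began at the same base in both libraries. A second peak 358 bp into the gene in replicate 1 and 318 bp in replicate 2 had a signal of 2.01 in replicate 1 and 0.885 in replicate 2. Nefl had the most shared footprints of the 10 genes, 7, and 5 of them lay between bases -143 and 93 relative to the start. It also had the lowest FDR of the 10 in replicate 1, at a −log10 of 27.9.

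Nefm (chr14:68082590-68124846, minus strand), whose annotated span takes in Nefl on the opposite strand, had a signal of 2.94 in replicate 1 and 0.818 in replicate 2. That ratio of 3.60 was the widest of the 10 genes. It had 823 bases at FDR 0.001 or less in replicate 1 and 220 in replicate 2, with 1 shared footprint, 65 to 73 bases inside the gene. Nefm thus ranked above 36.1% of the genes with a promoter peak in replicate 1 and 13.0% in replicate 2.

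Nefh (chr11:4938754-4948064, minus strand) was the weakest, above 12.2% of the genes with a promoter peak in replicate 1 and 4.34% in replicate 2. Its signal was 1.27 in replicate 1 and 0.555 in replicate 2. Neither value came from a peak over the start. The peak of replicate 1 lay 284 bp inside the gene, and its peak over the start had 0.919, while replicate 2 had no strict peak over the start and 1 peak of 71 bp at 393 bp inside the gene. That short peak was absent from the longer list of replicate 2, as were 1046 of the 50379 strict peaks of that library. A stronger region of 440 bp, chr11:4947041-4947480, lay in the first part of the gene, centred 0.804 kb downstream of the start and overlapping an exon. Its signal was 2.06 in replicate 1 and 1.44 in replicate 2. It fell outside the 500 bp limit but directly adjoined the promoter region, chr11:4947481-4947780.

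Gap43 (chr16:42248442-42340651, minus strand) encodes a growth cone membrane protein. By the rule it was open with a signal of 4.43 in replicate 1 and 1.73 in replicate 2. Of the genes with a promoter peak, 56.6% in replicate 1 and 47.7% in replicate 2 had a lower signal. That peak, however, was 64.0 kb inside the gene, with its near end at base -469 relative to the start of a noncoding transcript. At the coding start no strict peak was present in either library, and a peak of the longer list, with a signal of 0.368, was present in replicate 1 only. No base within 500 bp of the coding start reached an FDR of 0.001 in either library, and the highest −log10 FDR there was 1.78 in replicate 1 and 1.31 in replicate 2. The open call of Gap43 therefore rests on the internal peak.

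**Figure D3:**
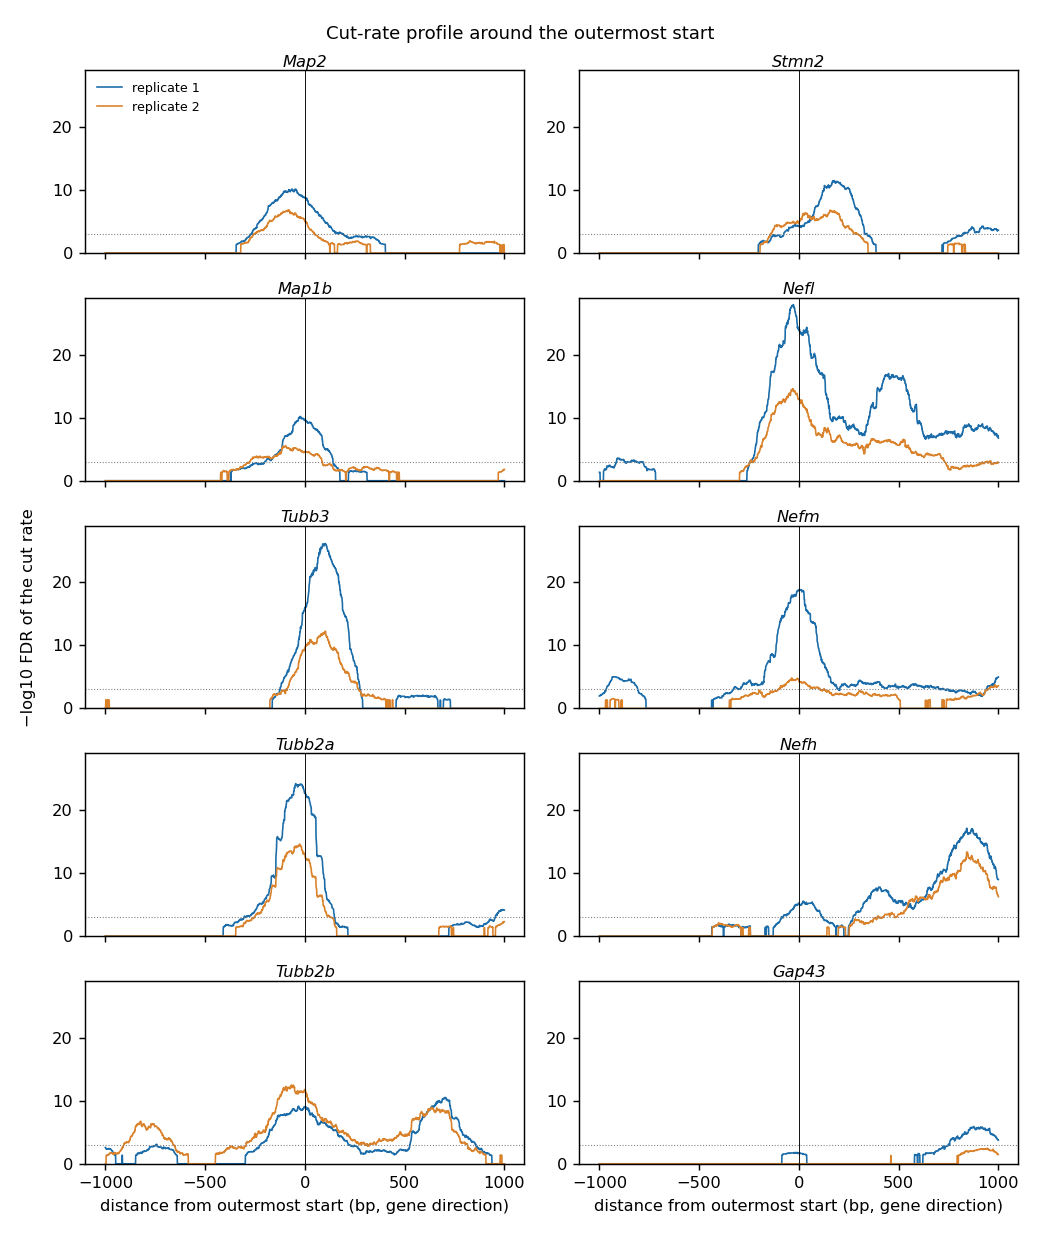
−log10 FDR of the cut rate per base (vertical axis) from 1000 bp before to 1000 bp after the outermost start of each gene (horizontal axis, in gene direction), in replicate 1 (blue) and replicate 2 (orange); bases above an FDR of 0.05 are not listed in the files and are drawn at 0, and the dotted line marks 0.001. In replicate 1 Nefl, Tubb3 and Tubb2a rise highest near the start, and in replicate 2 Tubb2b also passes Tubb3; Nefh has its main rise inside the gene, and Gap43 stays under the dotted line within 500 bp of the start.

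The footprints and the cut-rate bases were other readouts of the same libraries. Within 500 bp of any start, the 10 genes had a median of 7 footprints in replicate 1 and 5 in replicate 2, against 6 in replicate 1 and 5 in replicate 2 over open protein-coding genes. At least 1 shared footprint was present in 7 of the 10 genes, without Tubb2b, Stmn2 and Gap43. The share was 51.3% over all protein-coding genes, of which only 54.2% were open. It was not counted over open genes alone, so 7 of 10 cannot be read as high for open genes. The internal peak of Gap43 held 2 shared footprints, but both lay beyond the 500 bp window. The 10 genes held 22 shared footprints, a median of 1.5 per gene against 3 over open genes. The median number of bases at FDR 0.001 or less was 444 in replicate 1 and 371.5 in replicate 2, against 705 in replicate 1 and 629 in replicate 2 over open genes. Both counts are summed over all starts of a gene, and the 10 genes had a median of 2 starts against 5 over open genes.

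**Figure D4:**
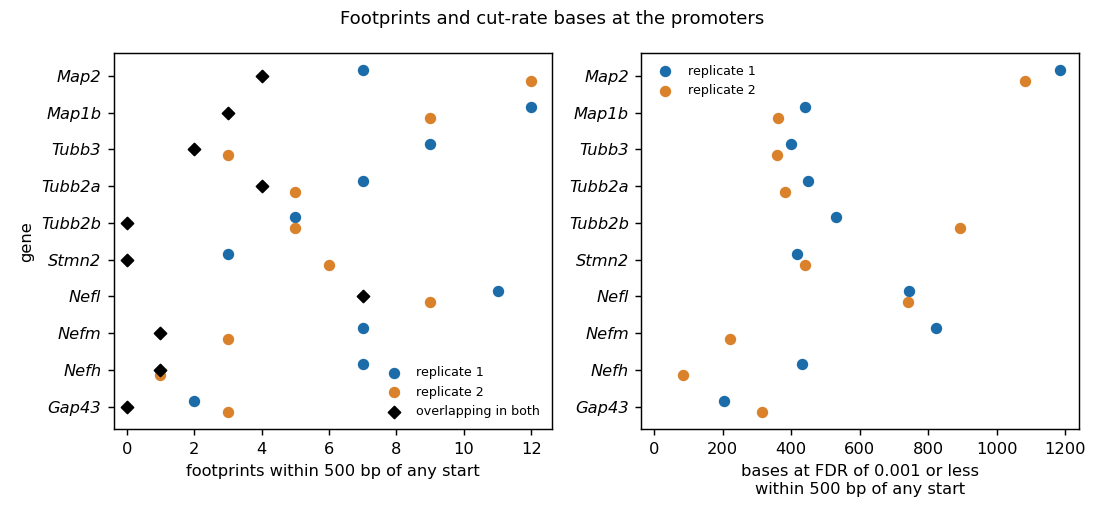
Left: footprints within 500 bp of any start (horizontal axis, count) in replicate 1 (blue), in replicate 2 (orange) and overlapping in both (black) for each gene. Right: bases at an FDR of 0.001 or less in the same windows; Map2, with 23 starts, has the most bases in both libraries, and Nefl the most overlapping footprints, 7.

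Around the genes, from 50 kb before to 50 kb after each, 47 distinct regions had peaks of both libraries. Of these, 14 were at the promoters of the 10 genes, 9 at promoters of other genes, and 24 were distal, meaning farther than 500 bp from every start of the protein-coding genes and long noncoding RNAs. Of the distal regions, 10 lay in introns, 4 in exons and 10 between genes. The median signal over the 24 was 2.18 in replicate 1 and 1.13 in replicate 2, set against 1.98 in replicate 1 and 0.855 in replicate 2 over all 21815 distal regions. Each of the 10 genes had at least 1 distal region, where 72.3% of protein-coding genes did. Pairs of neighbours share surroundings, so 3 distal regions were counted for both genes of a pair.

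Tubb2b had the most distal regions, 7, and 97.6% of protein-coding genes had fewer. Of these, 6 lay upstream, between 1.41 and 24.6 kb from its start, and the strongest of the 7, chr13:34154281-34154460, had a signal of 3.82 in replicate 1 and 1.38 in replicate 2, above the promoter peaks of Tubb2b in both libraries. Nefh had 4, Tubb3 and Nefm 3 each, Tubb2a, Stmn2, Nefl and Gap43 2 each, and Map2 and Map1b 1 each. Map2, the longest of the 10 genes at 267311 bp, thus had 1 distal region in the widest window, an exon of the overlapping gene Gm10558 with a signal of 1.13 in replicate 1 and 0.585 in replicate 2.

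By the mean of the signal ranks in both libraries, the strongest region in the surroundings was a promoter region of the gene itself for Map2, Tubb2a and Gap43, 3 of the 10 genes. Of these, only Tubb2a had it at the outermost start. For Map2 it was the region at the internal group 3, and for Gap43 the internal peak near the noncoding start. Distal regions were ordered by the same mean rank. The strongest distal region of Tubb3 was chr8:123361421-123361640, in an intron of Spire2, 49.9 kb upstream, with a signal of 8.38 in replicate 1 and 1.59 in replicate 2 and 3 shared footprints, and the promoter regions of Def8 and Tcf25 ranked above it. The strongest distal region of Tubb2a lay in an intron of Bphl, at 3.51 in replicate 1 and 1.62 in replicate 2. For Nefl and Nefm it was chr14:68067881-68068080, between genes, 15.9 kb upstream of Nefl, at 3.61 in replicate 1 and 1.26 in replicate 2, where the Nefl promoter was stronger in replicate 2 at 1.43. The strongest distal region of Nefh was the region inside the gene described with its promoter, although chr11:4975761-4975920, upstream, was stronger in replicate 1, with 3.20 in replicate 1 and 0.660 in replicate 2. Gap43 had 2 intronic regions of nearly equal mean rank, chr16:42269341-42269560, with 1.84 in replicate 1 and 1.10 in replicate 2, and chr16:42255761-42256120, with 2.37 in replicate 1 and 0.923 in replicate 2. Stmn2 also had an intronic region 4.49 kb into the gene, with 2.55 in replicate 1 and 1.64 in replicate 2, both above the signal of its promoter. The other genes with a promoter region in these surroundings were Unc80 beside Map2, Tcf25, Mc1r and Def8 around Tubb3, Bphl beside Tubb2a, Psmg4 beside Tubb2b, and Thoc5 and Ap1b1 around Nefh.

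**Figure D5:**
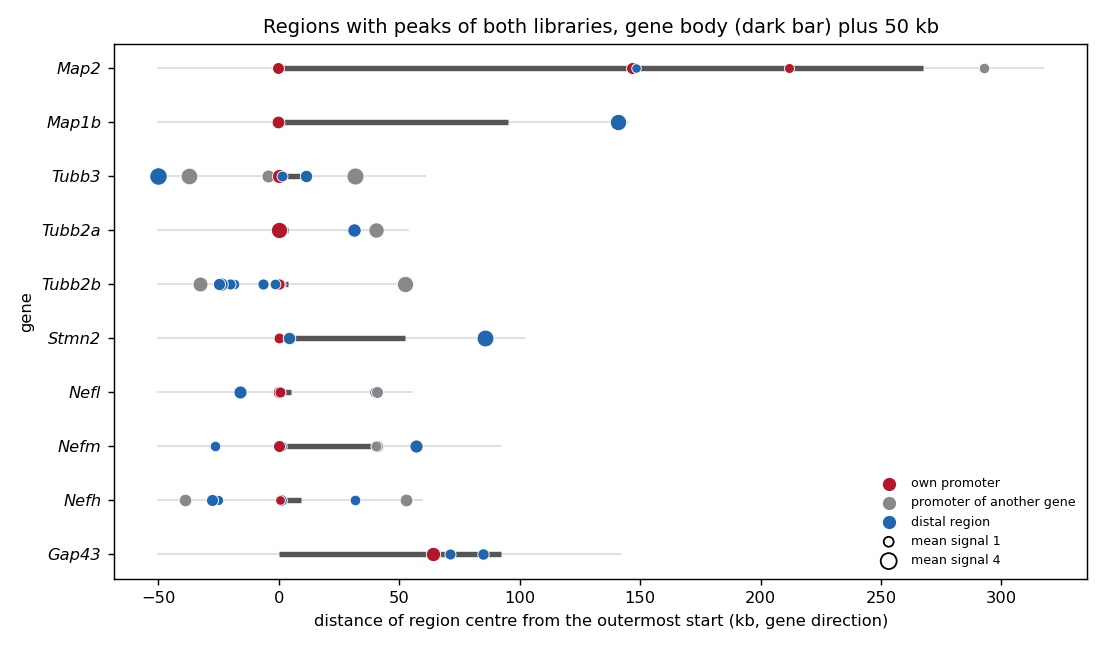
Regions with peaks of both libraries in and around each gene, by the distance of the region centre from the outermost start (horizontal axis, kb in gene direction). Dark bars are gene bodies and thin lines the 50 kb on either side; the size of a circle grows with the mean signal of both libraries, red marks own promoters, grey promoters of other genes and blue distal regions, of which Tubb2b has 7.

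The next 3 sequences, of strong regions away from a coding start, are examples of regions that stood above the promoter at the coding start of their gene, chosen after their values had been seen. Other regions that are not printed did so too, among them the strongest distal regions of Tubb3 and Tubb2b. The Gap43 region is the internal peak that carries its open call. The Stmn2 region lay between genes, 85.5 kb from the start and beyond the 3′ end, with a signal of 7.13 in replicate 1 and 2.06 in replicate 2. The Map1b region lay in an intron of Mrps27, 140.8 kb from the start and beyond the 3′ end, with 7.03 in replicate 1 and 1.51 in replicate 2. Each is written 5′ to 3′ on the strand of the named gene, with capitals as above.
Gap43, chr16:42276541-42276740, minus strand: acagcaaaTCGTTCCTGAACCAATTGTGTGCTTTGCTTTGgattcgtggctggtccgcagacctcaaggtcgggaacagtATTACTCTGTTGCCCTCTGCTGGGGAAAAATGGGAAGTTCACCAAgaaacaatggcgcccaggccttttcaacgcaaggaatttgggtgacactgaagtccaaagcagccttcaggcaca
Stmn2, chr3:8594801-8594980, plus strand: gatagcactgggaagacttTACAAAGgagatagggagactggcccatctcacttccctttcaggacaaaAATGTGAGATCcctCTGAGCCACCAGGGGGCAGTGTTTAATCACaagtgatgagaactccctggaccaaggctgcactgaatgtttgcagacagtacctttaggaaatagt
Map1b, chr13:99375641-99375820, minus strand: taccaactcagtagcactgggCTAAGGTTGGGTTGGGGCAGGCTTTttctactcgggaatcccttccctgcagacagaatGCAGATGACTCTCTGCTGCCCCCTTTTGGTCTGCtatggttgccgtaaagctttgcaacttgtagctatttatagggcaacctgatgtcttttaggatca
The Gap43 stretch held 2 shared footprints over 77 bases, the Stmn2 stretch 3 over 48 bases and the Map1b stretch 2 over 59 bases. They had few CpGs, 6 in Gap43, 0 in Stmn2 and 2 in Map1b.

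All 3 held the letters CCNNNAG, 2 further bases and GGC, part of the site of the insulator protein CTCF, with all 12 bases inside a shared footprint. The letters lay at bases 92 to 103 of the Gap43 stretch (on the opposite strand), 89 to 100 of the Stmn2 stretch and 98 to 109 of the Map1b stretch (opposite strand), counted from 1 at the 5′ end. The Gap43 stretch also held CCAAT at bases 20 to 24 and the Map1b stretch CAGATG at bases 82 to 87, each wholly inside a shared footprint. The spaced CTCF form was searched after these sequences had been seen. Of the 9 distinct strongest distal regions of the 10 genes, 3 held it, those of Map1b, Tubb2b and Stmn2. Over the central 200 bp of the distal regions the letters were in 8 of 24 around the 10 genes, which is 33.3%, against 33.2% of all 21815. GGGCGG was in 6 of the 24 regions, which is 25.0%, against 10.5% of all distal regions, around Tubb2a, Tubb2b and Tubb3 only. The CTCF core was in 7 of the 24, which is 29.2%, against 19.3%, and CCAAT in 4 of the 24, which is 16.7%, against 24.2%.

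Other genes of the cytoskeleton were read the same way from a list of 61 names, of which 60 matched the annotation. Of these, 52 were open, which is 86.7%, against 54.2% of protein-coding genes. That background share was 28.2% for genes with 1 or 2 starts and 90.1% for those with 10 or more. The listed genes had 1 to 37 starts each, and the background was not matched for this. Over the 52 open listed genes the median signal was 4.17 in replicate 1 and 1.65 in replicate 2. Over all open protein-coding genes it was 4.30 in replicate 1 and 1.80 in replicate 2. All 8 microtubule motor genes, all 6 spectrin and ankyrin genes, all 5 genes of the collapsin response mediators, all 5 other growth cone membrane proteins and all 3 other stathmins were open. So were 13 of 14 other microtubule-associated protein genes, without Dcx of migrating young neurons, 4 of 5 alpha tubulins, without Tuba1c, and 3 of 5 other beta tubulins, without Tubb1 of platelets and Tubb6. Of 9 other intermediate filament genes 5 were open, and Prph of peripheral neurons, Nes of neural progenitors, Des of muscle and Sync were not. The highest mean ranks of signal were those of the kinesin gene Kif1b, at 17.3 in replicate 1 and 3.62 in replicate 2, and of Camsap1, which binds microtubule minus ends, at 8.46 in replicate 1 and 2.78 in replicate 2.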

How the data were processed

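DNase-seq was measured in 2 libraries of 1 group. The authors deposited, per library, 2 peak lists, footprints and FDR values of the cut rate. The deposited peak signal has no stated scaling, and its values step by 0.0073 in replicate 1 and 0.0075 in replicate 2. The deposited p-value columns of the footprint and cut-rate files hold false discovery rates, constant at 0.01 for footprints. The build is mm10, per the labels; the sources used here do not give an aligner, peak caller or filter, and no file used gives the depth of a library. Only peak lists, footprints and cut-rate files were analysed.

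Genes and starts came from GENCODE M21, without the mitochondrial genome, and sequences from RefSeq and GRCm38.p6. Tested on the files, every strict peak held a base at FDR 0.001 or less and every longer-list peak 1 at 0.05 or less. Shared regions are connected peaks of both libraries (overlap of 1 bp or more), read in windows of 500 bp around starts and 50 kb around genes. Symbols were matched exactly, and Mtap7d3 did not match. A further tissue marker is not reported here. Motifs were found as letters. All 10 genes are named. Of related genes, those not open and the 2 highest by mean rank are named, and of distal regions the strongest per gene, with others chosen after their values were seen. Members and lists were chosen with earlier results of these data known. No test was made, since 1 group gives no comparison. Scripts used Python 3.11.15, numpy 2.4.6, pandas 2.3.3 and matplotlib 3.10.9 and were checked on simulated data. Alternatives were another peak list, window, start set, threshold, overlap and search form, and leaving out each library.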

Additional observations from a re-analysis of the deposited data

How the results depend on the processing

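No paired analysis was possible because both libraries belong to 1 group. The 10 open promoters became 8 to 10 and the 52 open related genes 47 to 54 across all alternatives. The median signal over the genes, taken in each library and then averaged over both libraries, was 2.08. This average became 1.30 with replicate 2 alone, 2.85 with replicate 1 alone and 1.99 to 2.16 otherwise. The SD between libraries was 1.10 and includes the generally higher signal of replicate 1. A signal therefore had to shift far to count as moved below. Open promoters stayed at 10 without either replicate, which follows from the definition because an open gene has a peak in each library. The 24 distal regions became 47 with the longer peak lists, 11 within 10 kb and 42 within 100 kb, and 35 to 46 without one replicate, where a region needs a peak of 1 library only. The 22 shared footprints became 38 within 2000 bp, and 56 to 70 without one replicate, where no overlap is asked for. The mean number of bases over both libraries, 5251 in all at FDR 0.001, became 8538.5 at FDR 0.05 and 6804 at 0.01, and was 4875 to 5627 without one replicate. The 15 pairs of gene and motif became 12 to 22. Per gene, 34 of 70 alternative distal counts, 24 of 50 footprint counts and 1 of 75 signals moved, by over 1.5 times for counts and by 1 SD between libraries for signals, the last for Nefh, 0.914 to 1.75 at 2000 bp. With 2 libraries, leaving one out stays under 1 SD by construction and says nothing of stability: Nefm had 1.88 as the mean, 0.818 without replicate 1 and 2.94 without replicate 2, and Tubb3 2.95, 1.41 and 4.49. Having 2 libraries of unknown depth limits all values, and a missing peak says only that none passed the caller's limit.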
